A study of Picea glauca with 69 samples.

Results

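The open-pollinated families 754_OP and 927_OP of white spruce (Picea glauca) were compared for transcripts of 5 genes of the gibberellin pathway, measured by real-time quantitative PCR. They were chosen by their titles, as the only open-pollinated families with 6 seedlings each, and make up 12 of the 69 seedlings of the series. Open pollination, the study's control strategy, means that seed was collected from a known tree while the pollen came from unknown trees. The seedlings of an open-pollinated family therefore share their seed parent but not all of their pollen parents. White spruce is a conifer bred for growth, and per the series title the families of the study differed in growth rate, although the labels do not say which of them grew faster. All 12 seedlings were untreated, were in their second growing season and were sampled after 92 days in a greenhouse. The tissue is needles in one label and apical internode in the extraction protocol, and no marker of either tissue was measured. The design text counts 23 families of 3 seedlings, whereas the titles tell apart 20 families, of which 17 have 3 seedlings and 3 have 6. Counting each title of 6 seedlings as 2 sets of 3 would give 23, and the labels do not say whether 754_OP and 927_OP hold 2 seed lots each.

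Gibberellins are plant hormones that promote stem elongation. Active gibberellin is made in the last steps of synthesis by the gibberellin 20-oxidase (GA20ox) and then the gibberellin 3-oxidase (GA3ox), and it is inactivated by the gibberellin 2-oxidase (GA2ox). The hormone binds the receptor GID, and the bound receptor marks DELLA proteins, which restrain growth, for degradation. In Arabidopsis active gibberellin raises GA2ox transcripts and lowers those of GA20ox and GA3ox, a feedback that holds hormone levels steady.

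Levels are given on a log2 scale against TIF, the control gene, as the threshold cycle (Ct) of TIF minus that of the gene. Less negative means more transcript, and with perfect amplification 1 unit corresponds to a factor of 2. The Ct of TIF in the 3 wells run with the GA oxidase genes ranged from 20.3 to 22.5 in 754_OP and from 19.7 to 21.7 in 927_OP. The 2 families differed in it by 0.52 cycles (95% interval -0.37 to 1.48, exact permutation p = 0.262, adjusted 0.262 over both sets of TIF wells). In the 2 TIF wells run with DELLA and GID the difference was 0.60 cycles (95% interval -0.31 to 1.54, exact permutation p = 0.195, adjusted 0.262). In 754_OP repetition 1 the last wells of GA2ox, GA3ox and GA20ox read 29.9, 28.8 and 20.3 cycles, each like the wells of the next gene in the sheet. This shift is absent from the normalized sheet.

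GA2ox, the gene that inactivates gibberellin, had the lowest p of the 5 genes but did not pass the adjusted threshold. It averaged -8.01 ± 0.42 (SD, n = 6 seedlings) in 754_OP and -9.22 ± 0.92 (n = 6) in 927_OP, so that its level was 2.32-fold higher in 754_OP (95% interval 1.23 to 4.42). Of the other 4 genes, GID had the higher mean in 754_OP, GA3ox and GA20ox had the lower means there, and the DELLA means lay 0.10 apart. None of the 5 genes passed an adjusted p of 0.05, which is 0 of 5 or 0% of the genes measured. By the exact permutation test of 6 against 6 seedlings, 1 of 5 genes (20%), GA2ox, had an unadjusted p under 0.05. The seedlings came from 1 family each, so the p-values weigh the difference against the spread between these seedlings and not against the spread between families.

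**Figure D1:**
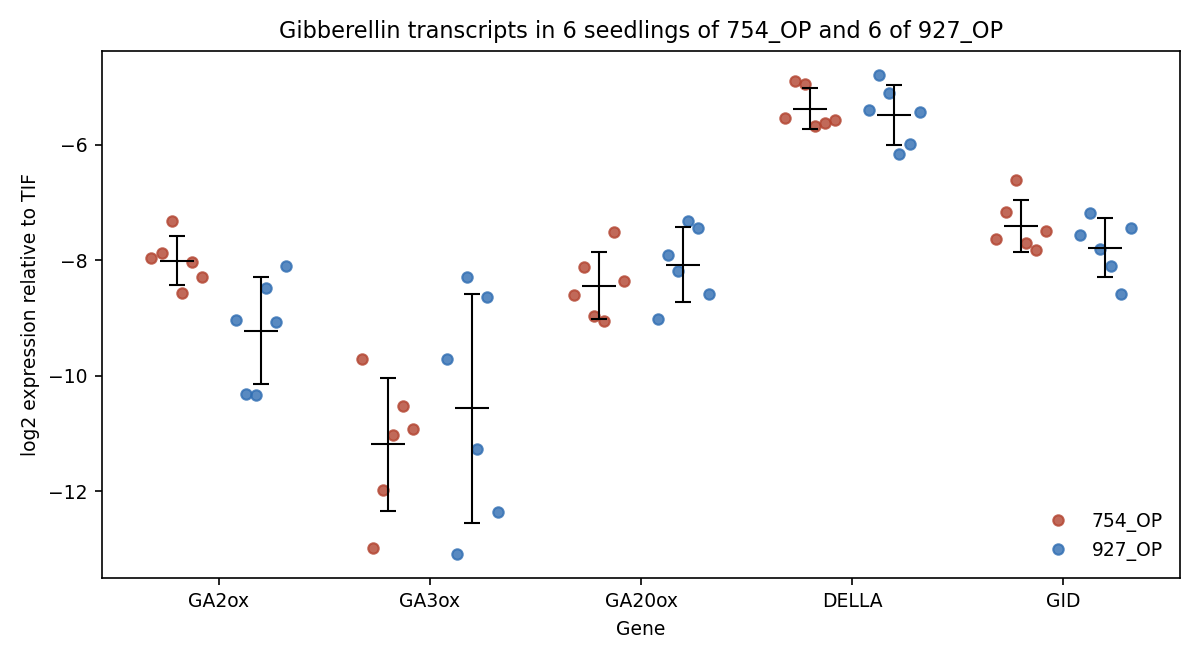
Log2 expression relative to TIF (y axis) of 5 genes (x axis) in each seedling of 754_OP (red) and 927_OP (blue), with bars for the mean and SD of 6 seedlings. GA2ox runs from -8.57 to -7.32 in 754_OP and from -10.33 to -8.10 in 927_OP, while GA3ox shows the widest spread in both families.

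GA2ox, the step of inactivation, was described first. In 754_OP it ran from -8.57 (repetition 4) over a median of -8.00 to -7.32 (repetition 3). In 927_OP it ran from -10.33 (repetition 3) over a median of -9.05 to -8.10 (repetition 6). All 6 seedlings of 754_OP lay above the median of 927_OP, and 4 of 6 lay above its highest seedling, but the families overlapped between -8.57 and -8.10. The difference of 1.21 ± 0.41 (SE) on the log2 scale had an exact two-sided permutation p of 0.0130 and a Benjamini-Hochberg adjusted p of 0.0649 over the 5 genes.

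The low mean of 927_OP rested largely on repetitions 2 and 3, at -10.31 and -10.33 against -9.07 in the next lowest seedling of the family, repetition 5. Without repetition 3 the difference was 0.99 (exact p = 0.0195, adjusted 0.0974), and without repetition 2 it was 1.00 (exact p = 0.0195, adjusted 0.0974). The call passed the threshold when either of the highest seedlings of 927_OP was left out, with an adjusted p of 0.0433 without repetition 4 and 0.0216 without repetition 6 in the same exact permutation test. Over all 12 omissions of a single seedling, each of which kept at least repetition 2 or 3 of 927_OP, the difference stayed between 0.99 and 1.44.

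The GA2ox difference is by construction the sum of a difference in GA2ox Ct and one in TIF Ct. The Ct of GA2ox alone averaged 29.0 in 754_OP and 29.7 in 927_OP, a difference of 0.69 cycles (exact p = 0.348, adjusted 0.455), and TIF made up the other 0.52. In 927_OP repetition 3 both were high, with GA2ox at 32.1 and TIF at 21.7 cycles. In 754_OP repetition 4 both were also high, at 31.0 and 22.5 cycles.

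GA20ox, the earlier step of synthesis, ran from -9.06 over a median of -8.48 to -7.51 in 754_OP, and from -9.02 over a median of -8.05 to -7.31 in 927_OP. The ranges nearly coincided. The mean was lower in 754_OP by 0.37 ± 0.36 (SE) on the log2 scale, with 0.776 of the 927_OP level (95% interval 0.447 to 1.35, exact p = 0.316, adjusted 0.527). The 2 highest seedlings were repetitions 4 and 5 of 927_OP, at -7.31 and -7.44.

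GA3ox, the step that yields active gibberellin, was the most variable gene in both families. In 754_OP it ran from -12.98 (repetition 2) over a median of -10.97 to -9.71 (repetition 1), a 9.67-fold range. In 927_OP it ran from -13.09 (repetition 2) over a median of -10.49 to -8.29 (repetition 3), a 27.8-fold range that enclosed all 6 seedlings of 754_OP. With so wide a spread the means of -11.19 ± 1.15 (SD, n = 6) and -10.56 ± 1.98 (n = 6) were not distinguishable: the level in 754_OP was 0.647 of that in 927_OP, with a 95% interval of 0.148 to 2.82 (exact p = 0.515, adjusted 0.644). In 927_OP repetitions 1, 3 and 5 were high, at -9.72, -8.29 and -8.64, and repetitions 2, 4 and 6 were low, at -13.09, -11.27 and -12.37, with a gap between them in which 3 of the 6 seedlings of 754_OP lay.

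The evenness of replicate wells was compared next. With the wells as deposited, their SD differed by 0.43 cycles in GA3ox (exact p = 0.0130, adjusted 0.0379 over the 5 genes) and by 0.92 cycles in GA20ox (exact p = 0.0152, adjusted 0.0379), so that 2 of 5 genes (40%) passed. Setting aside the moved wells of 754_OP repetition 1, a step added after seeing the data, left 0 of 5 (0%): the SD of GA3ox then averaged 0.474 cycles in 754_OP and 0.149 in 927_OP (exact p = 0.0563, adjusted 0.206), and GA20ox differed by 0.098 cycles (exact p = 0.108, adjusted 0.206). The wells of 754_OP repetition 4 read 33.6, 32.7 and 34.2 cycles, those of repetition 2 read 33.8, 33.4 and 34.6, and those of repetition 3 read 33.3, 33.0 and 31.8. In all, 4 of 6 seedlings of 754_OP, besides the moved wells of repetition 1, and 0 of 6 of 927_OP had GA3ox wells with an SD over 0.5 cycles. The wells of 927_OP repetition 6 were also late, at 32.9 in all 3, but lay within 0.016 cycles of each other, and its last well was midway between the first 2 within 0.0001 cycles. Such a last well cannot be told apart from a filled-in value, and if filled in it makes the well SD too small. It occurred in 4 of 24 sets of 3 wells in each family, but in GA3ox in 2 of 6 seedlings of 927_OP (repetitions 2 and 6) and 0 of 6 of 754_OP. In 754_OP 3 of the 4 sets were TIF wells, while all 4 in 927_OP were wells of GA3ox or GA20ox. How far this enters the GA3ox contrast in well SD was not tested.

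**Figure D2:**
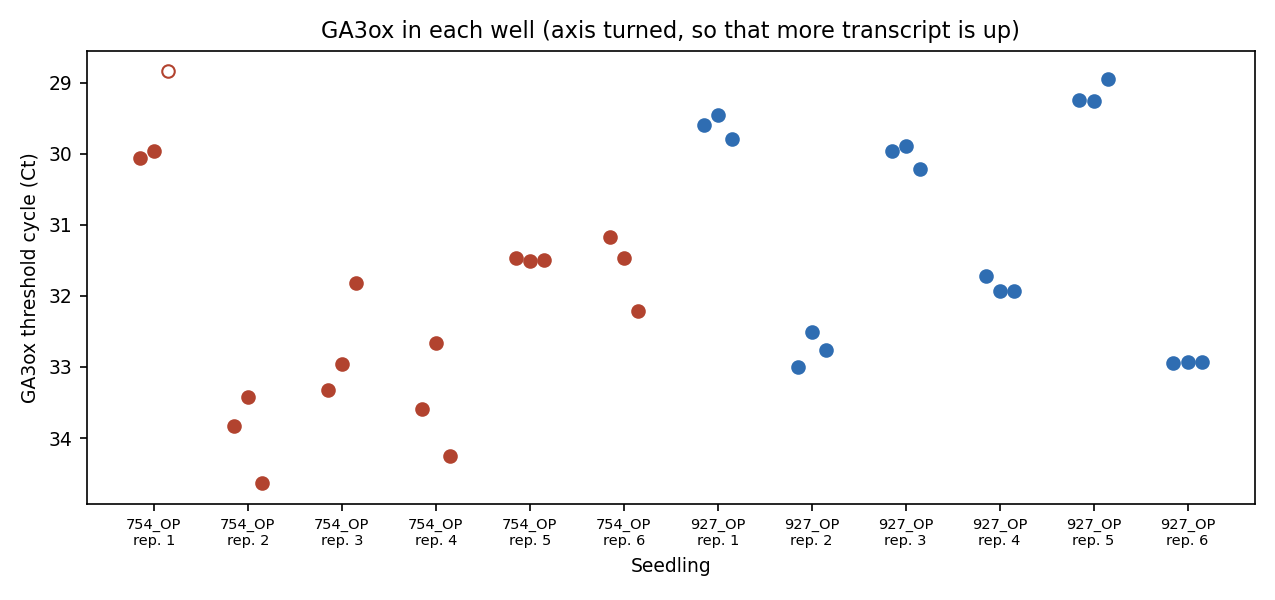
Threshold cycle of GA3ox (y axis, turned so that more transcript is up) in each of 3 wells of the 12 seedlings (x axis), 754_OP in red and 927_OP in blue. The open circle is the moved last well of 754_OP repetition 1, and the wells of 754_OP repetitions 2, 3, 4 and 6 spread by 1.05 to 1.59 cycles.

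Leaving out values with a well SD over 0.5 removed repetitions 2, 3, 4 and 6 of 754_OP, its 4 lowest GA3ox values, besides repetition 1 with its moved wells, and removed no seedling of 927_OP. The difference was then 0.031 with repetition 5 alone, and 0.44 with repetition 1 kept as well (exact p = 0.786, adjusted 0.786). This sign, opposite to that over all seedlings, follows from which values the filter took and says nothing of the direction.

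GID, the receptor, ran from -7.82 over a median of -7.56 to -6.61 in 754_OP and from -8.59 over a median of -7.68 to -7.19 in 927_OP. Its mean was 1.30-fold higher in 754_OP (95% interval 0.849 to 2.00, exact p = 0.212, adjusted 0.527). The highest value, 754_OP repetition 3, came from 2 wells that read 28.7 and 27.1 cycles. Without that value the log2 difference was 0.22 in place of 0.38, and without 927_OP repetition 5 it was also 0.22.

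DELLA, the repressor of growth, ran from -5.68 over a median of -5.55 to -4.90 in 754_OP and from -6.16 over a median of -5.42 to -4.79 in 927_OP. The 95% interval of the 754_OP level relative to 927_OP was 0.711 to 1.62 around a mean of 1.07 (exact p = 0.690, adjusted 0.690). Repetitions 4 and 5 of 927_OP had the lowest DELLA of the 12, at -6.16 and -5.98, and also the lowest GID, at -8.10 and -8.59. Both carry neighbouring sample numbers, 23 and 24. The order of the families in DELLA turned when 927_OP repetition 4 was left out, at -0.03.

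Ratios of genes within a seedling do not depend on the level of TIF where the genes share TIF wells. Synthesis was set against catabolism as the average of the GA20ox and GA3ox values less that of GA2ox. This ratio was -1.81 ± 0.89 (SD, n = 6) in 754_OP and -0.10 ± 1.53 (n = 6) in 927_OP, or 0.305 of the 927_OP ratio (95% interval 0.100 to 0.959). It ran from -3.16 over a median of -1.42 to -0.99 in 754_OP and from -2.37 over a median of -0.26 to 2.09 in 927_OP. In 5 of 6 seedlings 927_OP lay above the whole range of 754_OP, and the exception was repetition 6, below 4 of the 6 seedlings of 754_OP.

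None of the 3 ratios passed an adjusted p of 0.05 (0 of 3, or 0%), and 1 of 3 (33.3%), that of synthesis to catabolism, had an unadjusted exact p under 0.05 (p = 0.0411, adjusted 0.123 over the 3 ratios). Without 927_OP repetition 6 the difference widened from -1.71 to -2.17 and passed (exact p = 0.00216, adjusted 0.00649), and over the 12 omissions it lay between -2.17 and -1.27, with an unadjusted exact p of up to 0.0909. The ratio carries the uneven GA3ox wells of 754_OP.

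The receptor set against the repressor (GID less DELLA) averaged -2.03 ± 0.22 (SD, n = 6) in 754_OP and -2.30 ± 0.32 (n = 6) in 927_OP, or 1.21-fold higher in 754_OP (95% interval 0.939 to 1.55, exact p = 0.117, adjusted 0.175). All 6 seedlings of 754_OP lay above the median of 927_OP, -2.28, and the families overlapped. GA3ox over GA20ox, the 2 steps of synthesis set against each other, differed by -0.26 with an interval of -2.58 to 2.08 (exact p = 0.779, adjusted 0.779).

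**Figure D3:**
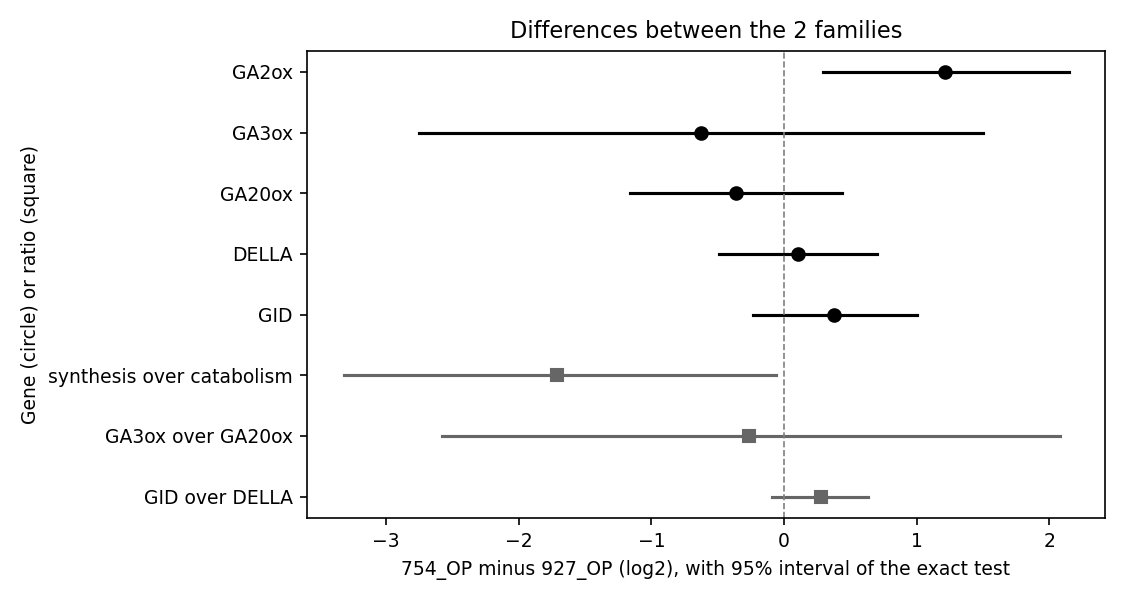
Difference of 754_OP minus 927_OP on the log2 scale (x axis) for 5 genes (circles) and 3 ratios (squares) on the y axis, with lines for the 95% interval from the exact permutation test. The intervals of GA2ox (0.29 to 2.14) and of synthesis over catabolism (-3.32 to -0.06) leave out 0, before adjustment, and the other 6 include it.

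The families differ in the sample numbers of their titles. The seedlings of 754_OP have numbers 19, 39, 40, 51, 57 and 63, a mean of 44.8, and those of 927_OP have 2, 3, 7, 23, 24 and 61, a mean of 20. The labels do not say what the number stands for. In the 57 seedlings of all other families GA2ox was higher by 0.16 per 10 numbers (Pearson's r of 0.47, as a description). A line fitted to them puts the 2 families 0.41 apart in GA2ox by number alone, against 1.21 observed. Measured from that line the families differed by 0.81 (exact p = 0.0584, adjusted 0.292). The numbers were also parted into 5 series (1 to 24, 25 to 32, 33 to 56, 57 to 64 and 65 to 69) with earlier results of these data known. In them the Ct of the second set of TIF wells minus that of the first had medians of 0.55, -0.71, 0.52, -0.49 and -0.014 cycles. All seedlings of a series entered its median. The ranges overlapped between neighbouring series, except between numbers 25 to 32 (-1.71 to 0.008) and numbers 33 to 56 (0.18 to 1.03). Measured from the mean of the other-family seedlings of its series, the GA2ox difference was 0.73 (exact p = 0.0996, adjusted 0.498).

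**Figure D4:**
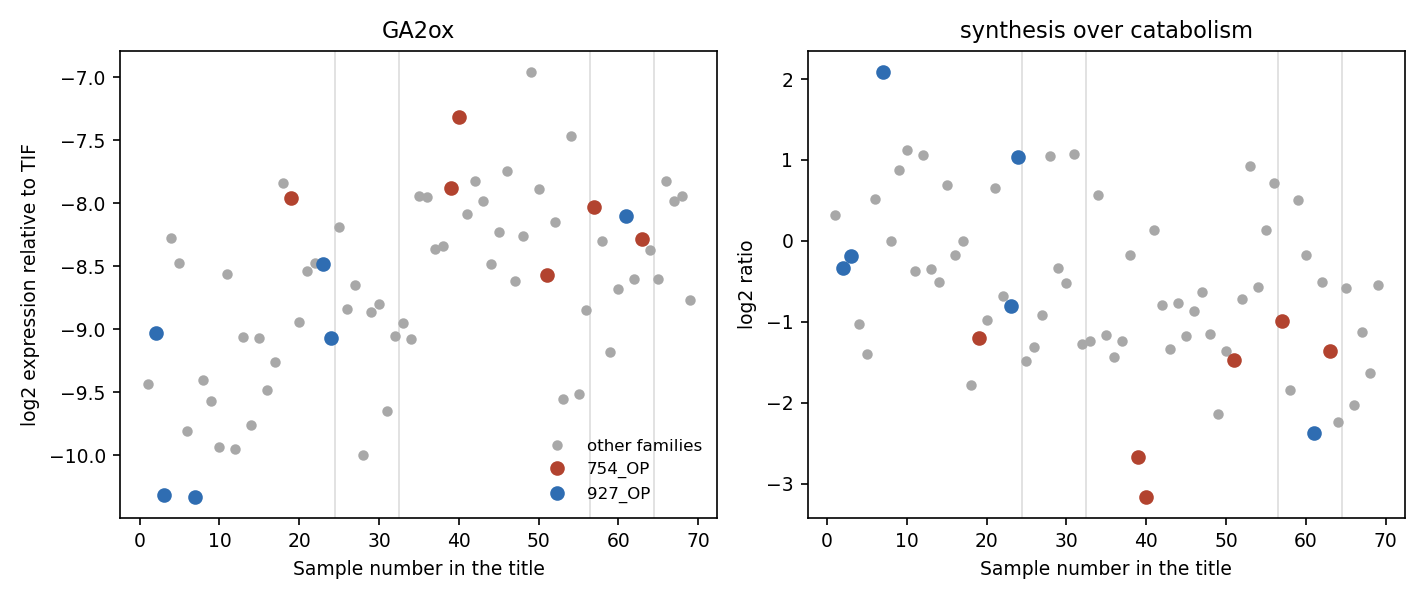
GA2ox (left, log2 relative to TIF) and the synthesis to catabolism ratio (right, log2) on the y axis against the sample number in the title (x axis), with 754_OP in red, 927_OP in blue and 57 seedlings of other families in grey. Vertical lines part the 5 series, and 5 of the 6 seedlings of 927_OP lie in numbers 1 to 24, with 1 of 754_OP.

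Where both families occur in a series, seedlings are few. In numbers 1 to 24 the only seedling of 754_OP, repetition 1, had GA2ox at -7.96, against a mean of -9.44 in 5 seedlings of 927_OP, a difference of 1.49. It exceeded 17 of 18 seedlings of other families there, whose mean was -9.10 ± 0.63 (SD). The seedlings of 927_OP themselves were spread around the other families in that series, with repetitions 2 and 3 below all 18 and repetitions 1, 4 and 5 above 11, 14 and 9 of them. In numbers 57 to 64 the difference was -0.06: the 2 seedlings of 754_OP averaged -8.16, and 927_OP repetition 6 had -8.10, all 3 above the 5 seedlings of other families. With the series as a fixed term, where 9 of the 12 seedlings carry the comparison, the GA2ox difference was 0.80 (exact p = 0.222 over 18 arrangements, the smallest possible being 0.0556).

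The 3 seedlings of 754_OP in numbers 33 to 56 had the low GA3ox. Repetitions 2 and 3 lay below all 21 seedlings of other families in that series and repetition 4 below 20 of 21, with a mean of -11.99 for the 3 against -9.65 ± 1.01 (SD, n = 21). No seedling of 927_OP lies in that series. In numbers 1 to 24 and 57 to 64 the GA3ox difference had the opposite sign, at 0.49 (1 against 5 seedlings) and 1.64 (2 against 1), and a fit with series as a fixed term gave 1.00 (exact p = 0.389, adjusted 0.972). The synthesis to catabolism ratio differed by -1.56 in numbers 1 to 24 and by 1.20 in numbers 57 to 64. Its difference with the series as a fixed term was -0.33 (exact p = 0.778).

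Measured from the mean of the other families of its series, each seedling of 754_OP had a lower ratio of synthesis to catabolism (6 of 6) and a higher ratio of GID to DELLA (6 of 6). In 927_OP the counts were 4 of 6 lower and 3 of 6 higher. The difference between the families measured in this way was -1.30 for synthesis to catabolism (exact p = 0.0758, adjusted 0.114) and 0.34 for GID to DELLA (exact p = 0.0714, adjusted 0.114). For GID to DELLA the mean of numbers 33 to 56 includes 138_PM number 53, at -5.18 with DELLA at -2.62. Of the 21 seedlings in that mean, 754_OP repetition 2 lay above 11, repetition 3 above 20 and repetition 4 above 17. From the line in sample number GID to DELLA differed by 0.48 (exact p = 0.0498, adjusted 0.130). That line was fitted with 138_PM number 53 and 927*991_CC number 67 included, the latter at -5.61 with DELLA at -2.22. How far these seedlings set its slope was not tested.

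Among the 8 open-pollinated families the pair stood at opposite ends of the order for GA2ox, with 754_OP highest and 927_OP lowest. The 6 families between them, of 3 seedlings each, had means from -8.66 ± 0.13 (SD) in 138_OP to -8.32 ± 1.18 in 193_OP, and neighbours among these 6 lay closer to each other than their SDs. The same held for the synthesis to catabolism ratio, with 927_OP highest and 754_OP lowest. The 18 seedlings of these 6 families had a mean GA2ox of -8.47 ± 0.60 (SD). Of them 9 lay below the lowest seedling of 754_OP and 5 lay above the highest seedling of 927_OP. None of the 18 lay below the range of 927_OP in any of GA2ox, GA3ox, DELLA or GID, while 4 lay below it in GA20ox. In GA3ox none lay below the range of 754_OP either. GA3ox was lowest in 754_OP among the 8 families, and 927_OP took the fifth place from the top, while GID was lowest in 927_OP and in the third place in 754_OP.

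Families of trees 754 and 927 from the other breeding strategies showed whether the contrast in GA2ox recurred. In polymix families, pollinated with a mixture of pollen, GA2ox averaged -8.37 ± 0.39 (SD, n = 6) in 754_PM and -8.80 ± 0.55 (n = 3) in 927_PM, a difference of 0.43 in the same direction (exact p = 0.238, adjusted 0.850 over 10 tests). Of the 6 seedlings of 754_PM, 3 carry the sample type Control although their titles say polymix. Without them the GA2ox difference was 0.46 (exact p = 0.400) and that of GA3ox was 1.17 in place of 0.35 (exact p = 0.200). Neither passed the adjusted threshold, which 3 against 3 seedlings cannot reach. In controlled crosses it averaged -9.15 ± 0.73 (n = 3) in 754*966_CC and -8.40 ± 0.37 (n = 3) in 927*991_CC, a difference of -0.75 in the opposite direction (exact p = 0.300, adjusted 0.850, where 3 against 3 cannot go below 0.10). The seedlings of 754_PM have numbers 18, 38, 41, 56, 64 and 69 and those of 927_PM 1, 22 and 44. Those of 754*966_CC have 6, 17 and 37 and those of 927*991_CC 21, 60 and 67. In each strategy, open pollination included, the tree with the higher GA2ox is thus the one with mostly higher numbers. The crosses also differ in the other parent, 966 or 991, and the parts of number, parent and tree cannot be told apart.

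The tree difference itself was compared between strategies by exact permutation of the strategy within each tree. For GA2ox it was 1.96 log2 units larger in open-pollinated than in controlled-cross families (exact p = 0.0115, adjusted 0.115 over 10 tests) and 0.79 larger than in polymix families (exact p = 0.218, adjusted 0.545). An adjusted p under 0.05 was reached by 0 of the 10 (0%) and an unadjusted exact p under 0.05 by 1 (10%). Over 27 omissions of a seedling the contrast with controlled crosses lay between 1.63 and 2.35, with an adjusted p of up to 0.349. The 6 seedlings of 754_PM and 3 of 927_PM do not enter this contrast, so omitting any of them left it at 1.96. The contrast passed in 1 of the 27, without 927_OP repetition 6, at 2.18 (exact p = 0.00298, adjusted 0.0298). The other 4 genes had exact p from 0.128 (GA20ox against controlled crosses) to 0.822 (GA3ox against controlled crosses). Of the 10 tests of trees within polymix and controlled-cross families 0 (0%) had an exact p under 0.05, adjusted or not. Those in controlled crosses, 3 against 3, cannot go below 0.10, so they could not count. In polymix families, 6 against 3, the smallest possible p is 0.0119, which 1 test alone could not carry past the adjustment. The largest difference was GA20ox in controlled crosses, at -1.27, with p at its floor (exact p = 0.100, adjusted 0.850). All 3 seedlings of 754*966_CC, at most -8.18, lay below those of 927*991_CC, at least -7.83.

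**Figure D5:**
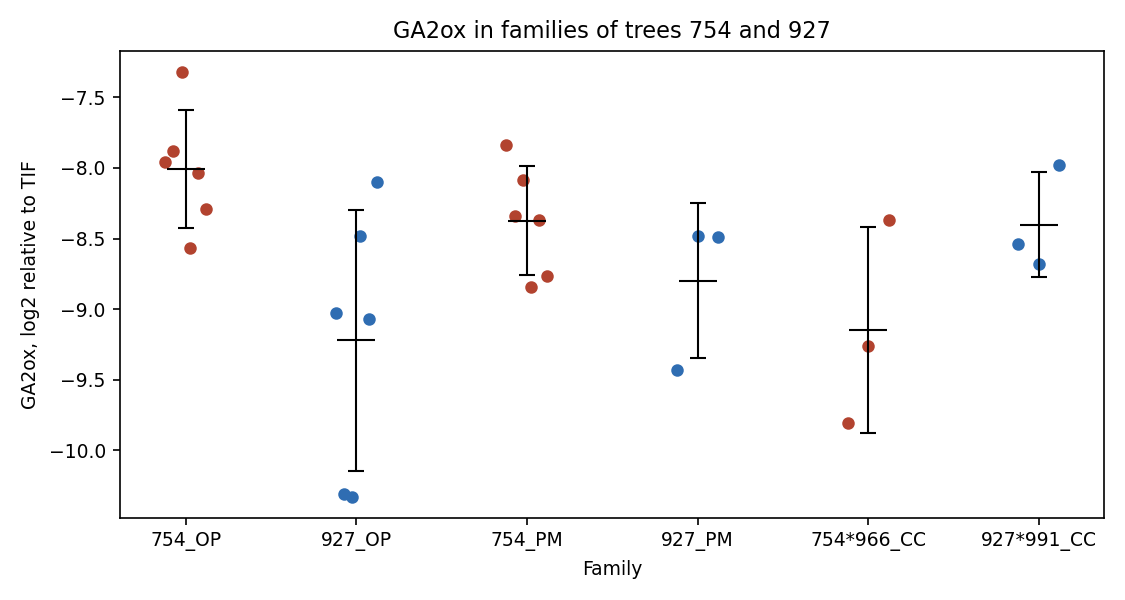
GA2ox (y axis, log2 relative to TIF) in each seedling of 6 families (x axis) of tree 754 (red) and tree 927 (blue), with bars for the mean and SD. Tree 754 has the higher mean in open-pollinated (-8.01 against -9.22) and polymix families (-8.37 against -8.80) and the lower mean in controlled crosses (-9.15 against -8.40).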

How the data were processed

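Real-time PCR values of 69 seedlings were used, of which 12 belong to 754_OP and 927_OP. The deposited sheets hold Ct per well and, as checked, log2 values made by the authors as mean target Ct minus mean TIF Ct of the same wells. Of 60 such values in the 12 seedlings, 57 equalled this rule within 0.001 cycles, and the other 3 are the GA oxidase genes of 754_OP repetition 1. The sign was turned. Wells numbered 3 per GA oxidase gene and 2 for DELLA and GID. Per the labels' protocols 0.5 µg of RNA was reverse transcribed and amplified over 40 cycles with SYBR Green. PCR efficiency was not given in the sources used here. The design text speaks of pooling equal RNA amounts, while every seedling has its own wells.

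The seedling was the replicate, with its group taken from the title. Nothing names a seedling's block. Differences of means were tested by exact two-sided permutation (924 splits) with Benjamini-Hochberg adjustment over 5 genes, 3 ratios, 2 sets of TIF wells or 10 tests of trees, at 0.05, and intervals of 95% were obtained by inverting the test. All 60 values entered the main tests unfiltered. All 5 genes were named throughout, with any seedling that had a well SD over 0.5 or stood apart. The families, gene groups, series of sample numbers and tests were chosen with earlier results of these data known. Correlations, omission of seedlings in the tree comparisons and of TIF, and the handling of the moved wells were added after seeing the data. Python 3.11.15, numpy 2.4.6 and scipy 1.17.1 were used. Depth has no meaning for Ct values, so the number of wells and seedlings limits the precision.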

Additional observations from a re-analysis of the deposited data

Results flagged for a closer look

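The Ct of TIF in the wells run with the GA oxidase genes was 22.5 cycles in 754_OP repetition 4, apart from the other 5 seedlings of the family by more than Dixon's 95% limit. Of 20 sets of 6 values looked at in this way it was the only one, and chance alone gives about 1 in 20. The Ct of all 5 genes was also the highest or second highest of the family in this seedling, with GA20ox at 31.5, DELLA at 28.5 and GID at 30.6 cycles. Without it the TIF difference between the families was 0.23 cycles in these wells and 0.30 in the other set, and the GA2ox difference was 1.33.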

How the results depend on the processing

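Under all 13 planned or added alternatives other than omissions, 0 genes passed the adjusted threshold. The fit with a series term could not pass, as its smallest possible p is 0.0556. With the repetition as a replicate block the smallest is 0.03125, which 1 gene alone could not carry past the adjustment. GA2ox was higher in 754_OP in all of them, with a difference of 0.69 without a control gene to 1.24 with all 5 TIF wells as the reference, and 5.00 mean ranks. Its unadjusted exact p was under 0.05 in 8 of 13, a level that the fit with a series term could not reach. Signs turned for GA20ox at 0.11 when recomputed from the wells as deposited, DELLA at -0.49 and GID at -0.22 by target Ct alone, DELLA at -0.092 from the line in sample number, -0.015 from the series means and -0.096 in the fit with a series term, GA3ox at 0.031 without values of well SD over 0.5, 0.44 with the seedling of moved wells kept and 1.00 in the fit with a series term, and GA3ox over GA20ox at 0.42 and 1.07 under the last 2. With the moved wells set aside the difference in well SD was -0.025 for GA2ox, against 0.084, and for GA3ox and GA20ox it no longer passed, at 0.32 and 0.098. The well SD filter took the 4 lowest GA3ox values of 754_OP. Recomputed with the moved wells set aside, GA20ox was at -0.37 and had not turned. Target Ct alone omits the TIF difference of 0.60 cycles that by construction enters the DELLA and GID differences. The cause of the remaining turns was not tested.

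Over omissions of a seedling, differences ran from 0.99 to 1.44 for GA2ox, -1.13 to -0.17 for GA3ox, -0.55 to -0.21 for GA20ox, -0.034 to 0.24 for DELLA, 0.22 to 0.50 for GID, -2.17 to -1.27 for synthesis over catabolism, -0.80 to 0.21 for GA3ox over GA20ox and 0.19 to 0.35 for GID over DELLA. The number of genes past the threshold ran from 0 to 1, and so did that of the tests of the tree difference between strategies. It was 0 for the trees within polymix and controlled crosses, where the tests of controlled crosses could not pass. TIF differed by 0.23 to 0.77 and 0.30 to 0.79 cycles. Without the 3 seedlings of 754_PM of control sample type, 0 of the tree tests within polymix and controlled crosses passed. All of these then set 3 against 3 seedlings and could not go below 0.10, so this count was fixed in advance. The GA3ox contrast of open-pollinated less polymix families was -1.80 in place of -0.98.

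The labels do not say whether repetition numbers pair the seedlings. The same-numbered deviations over 5 genes correlated at -0.82 to 0.87, over 0.1 in 3 of 6 pairs, and 2 of 6 seedlings matched their own number best. Correlations over so few genes and pairs cannot decide whether the numbers mark a block. With the repetition as a replicate block the GA2ox difference of 1.21 had an exact p of 0.125 and 0 of 5 genes an unadjusted p under 0.05, against 1 of 5 without it.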

Other observations

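Genes were also set against each other among the 6 seedlings of a family. An adjusted p under 0.05 was reached by 0 of 20 relations, and an unadjusted exact p under 0.05 by 1 with Pearson's r, that of the receptor GID and the repressor DELLA, with r = 0.88 in 754_OP (exact permutation p = 0.0347, adjusted 0.233 over 20 relations; Spearman's rho 0.83, exact p = 0.0583) while r was 0.81 in 927_OP (exact p = 0.0583, adjusted 0.233; rho 0.71, exact p = 0.136). Without the 2 seedlings farthest from the median of DELLA r was 0.57 and 0.75 over 4 seedlings. Both genes are set against the same TIF wells, so an error in TIF moves them together. GA2ox and DELLA had r of 0.77 in 754_OP (exact p = 0.050, adjusted 0.233; rho 0.89, exact p = 0.0333) and -0.70 in 927_OP (exact p = 0.121, adjusted 0.396). With the 2 seedlings farthest from the median of GA2ox left out, r was 0.61 in 754_OP and 0.13 in 927_OP, over 4 seedlings. The difference between the families in this correlation was not tested.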
